A study of Mus musculus with 9 samples.

Results

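The genes of DNA replication and origin licensing were followed in ventricles of mice at postnatal day 7 after loss of Arid1a in cardiomyocytes. The set holds 41 genes chosen by name for their roles in S phase, out of 38293 genes in the count table, and all 41 passed the filter on low counts. RNA was compared between 2 genotypes. Controls were littermates with the floxed Arid1a f/f alleles and no Cre (5 libraries), and mutants were aMHC-Cre;Arid1a f/f (cKO, 4 libraries). Both groups share the floxed alleles, the age and the tissue, and the lines were kept on a C57B/6 J background with pups of both sexes included. Cre is driven by the cardiomyocyte promoter of the alpha myosin heavy chain gene, so other cells of the ventricle keep Arid1a, and no library carries Cre without the floxed alleles, so that an effect of Cre and of the deletion cannot be told apart.

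A cell copies its DNA from origins that are prepared in advance. The origin recognition complex, Cdc6 and Cdt1 load the ring of MCM proteins onto DNA in G1 phase, which is called licensing, and geminin, the product of Gmnn, binds Cdt1 to keep origins from being licensed again once S phase has begun. Cdc45 and the GINS complex then turn the MCM ring into an active helicase, polymerases and the sliding clamp PCNA copy the strands, and ribonucleotide reductase and thymidine kinase supply nucleotides. Many of these genes are transcribed under E2F factors and fall silent as mouse cardiomyocytes leave the cell cycle in the days after birth.

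Library totals lay between 31011055 and 40073801 counts, and no member had fewer than 69 counts in any library. Levels are given as CPM, the usual unit of read counts divided by the library total after TMM scaling. Arid1a itself was lower in every cKO library, from 128.0 to 148.1 CPM in controls to 100.3 to 112.9 CPM in cKO. Its log2 fold change was -0.39 with an SE of 0.06 (adjusted p = 0.00132 by edgeR). Arid1a did not pass in the Rps3a3-low libraries described next (-0.33, adjusted p = 0.0822). The libraries also fell into 2 sets that no label explains. Rps3a3, an annotated copy of a ribosomal protein gene, was nearly missing, at 0.34 to 0.52 CPM, from cKO replicates 1 to 3 and control replicates 1 and 2. It reached 99.7 to 112.3 CPM in cKO replicate 4 and control replicates 3 to 5. The related gene Rps3a1 stood the other way, at 253.1 to 275.6 CPM in the former libraries and 70.8 to 75.7 CPM in the latter, and whether reads were assigned differently between the 2 genes was not tested. The libraries are called the Rps3a3-low and the Rps3a3-high set, and differences within each are given beside the main results. The 7 cardiomyocyte markers summed to 40830 to 48710 CPM in controls and 35930 to 40500 CPM in cKO. The tissue label thus held in all libraries, with every cKO sum below every control sum and 2 of the markers, Myl2 and Pln, lower at an adjusted p under 0.05.

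Between the genotypes, most of the 41 chosen genes stood modestly higher in cKO ventricles, though 27 of the 41 did not pass an adjusted p of 0.05. The 46 other replication genes described later had a median log2 fold change of 0.10, with 2 higher at that threshold. Of the 41 genes, 38 had a higher fitted value in cKO, where 51.5% of all 15318 genes tested did. At an adjusted p under 0.05, 14 were higher (34.1%) and 0 lower, beside 8.25% of all genes higher and 8.03% lower; at an unadjusted p under 0.05, 22 were higher, beside 15.2% of all genes. The median log2 fold change was 0.34, a 1.26-fold difference, beside 0.01 over all genes. The genes that rose were Gmnn, Tk1, Ung, Chaf1a, Rrm2, Uhrf1, Cdc45, Mcm7, Mcm10, Mcm3, Mcm5, Pola1, Gins1 and Rrm1. Only 4 of them also rose over 1.5-fold, Gmnn, Tk1, Ung and Chaf1a, beside 4.01% of all genes higher and 6.72% called in either direction. In 10 members every cKO library lay above every control library, beside 8.16% of all genes.

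**Figure D1:**
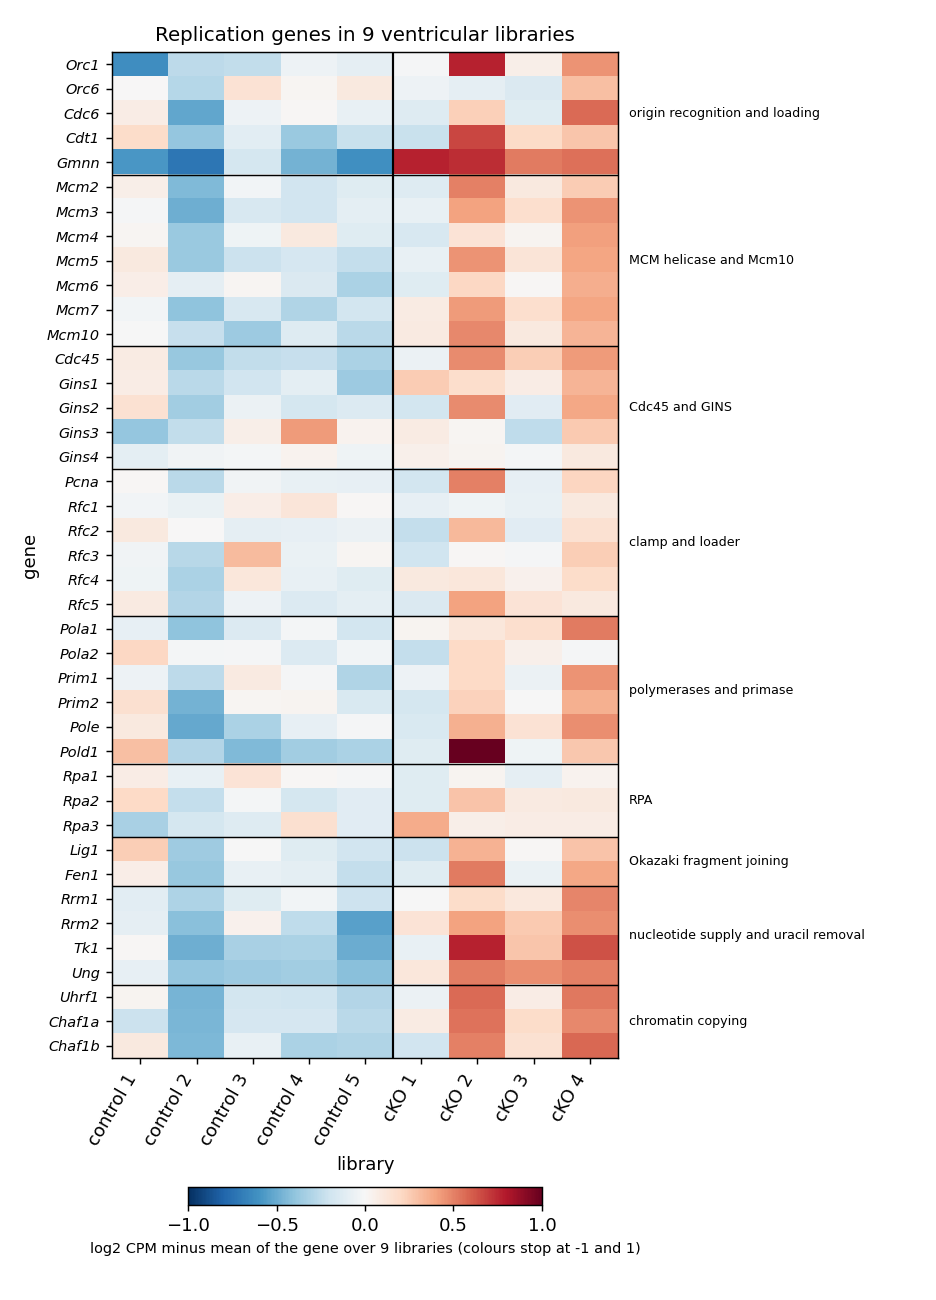
Log2 CPM of each of the 41 genes (rows, grouped by role) less the mean of that gene over the 9 libraries (columns, controls left of the line). Most rows are reddest in cKO replicates 2 and 4 and bluest in control replicate 2, while Gmnn is red in all 4 cKO libraries.

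The rise was uneven among the cKO libraries. Each library was given a score, the median over the 41 genes of its log2 level minus the gene's mean over all libraries. In controls the scores of replicates 1 to 5 were 0.02, -0.34, -0.07, -0.12 and -0.15. In cKO replicates 1 to 4 they were -0.08, 0.36, 0.07 and 0.36. The groups overlapped, since cKO replicate 1 lay below control replicates 1 and 3. The highest level of a gene fell in cKO replicate 2 for 19 members and in cKO replicate 4 for 15, and the lowest fell in control replicate 2 for 25. Of the 41 genes, cKO replicates 2 and 4 exceeded every control in 32 and 33, against 20 in cKO replicate 3 and 12 in cKO replicate 1. None of these counts was made over all genes, so shifts of a whole library were not set apart from the members.

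Within the Rps3a3-low set the median difference of the members was 0.26, with 37 genes higher, and within the Rps3a3-high set, which holds a single cKO library, it was 0.51, with 40 higher. When library set entered the fit as a term 16 members passed, and in the 5 Rps3a3-low libraries alone 1 passed. The number that passed ranged from 6 without cKO replicate 4 to 18 without cKO replicate 1. It was 9 without control replicate 2, 8 without control replicate 3, 7 without control replicate 5 and 8 without cKO replicate 2. Calls over 1.5-fold, 4 in all libraries, numbered 9 without cKO replicate 1. The share of all genes past the adjusted p was counted in the main fit alone, not in these fits. The RNA is from whole ventricle, so more cells in cycle and more RNA per cycling cell cannot be told apart, nor can the cell type that held it. Fibroblast markers summed to 5587 to 6902 CPM in controls and 6762 to 8020 CPM in cKO, with 3 of 7 higher at an adjusted p under 0.05 (Col1a1, Col1a2 and Tcf21). Erythroid markers summed to 485.7 to 935.9 CPM in controls and 740.1 to 1145 CPM in cKO, the highest in cKO replicate 2, and macrophage markers to 65.8 to 120.8 CPM and 77.3 to 149.7 CPM, with 0 of 7 past the threshold in both lists. Sums of endothelial, mural and lymphocyte markers overlapped between the groups, with 1 endothelial marker (Tek) lower, and lymphocyte markers reached at most 7.73 CPM in all. The part of these cells in the result was not tested.

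**Figure D2:**
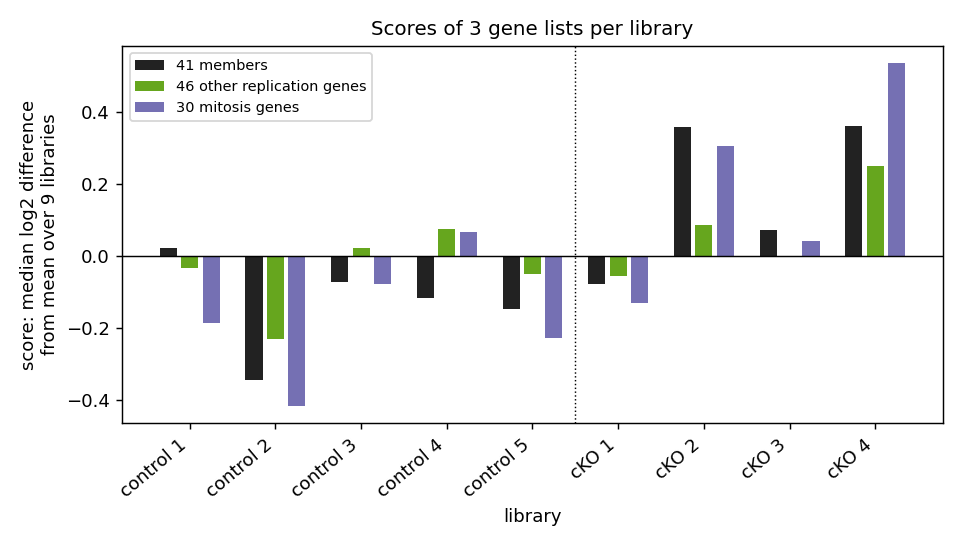
Score of each library (bars; the median log2 difference from the mean over 9 libraries) for the 41 members, 46 other replication genes and 30 mitosis genes. The member bars rise to 0.36 in cKO replicates 2 and 4, while cKO replicate 1 stays below 0.

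Among the licensing genes, Gmnn stood apart. Controls 1 to 5 held 24.5, 22.2, 32.5, 26.5 and 24.0 CPM of it, against 62.5, 61.2, 52.5 and 53.8 CPM in the cKO libraries 1 to 4. All 4 cKO libraries lay well above the controls, and the spread within each group was small. The mean went from 25.9 ± 3.97 (SD, n = 5) to 57.5 ± 5.08 CPM (SD, n = 4). The gene rose by 1.15 on a log2 scale (SE 0.11, adjusted p = 2.19e-05 by edgeR), or 2.22-fold. Gmnn (ENSMUSG00000006715) lies on the minus strand of GRCm38 chromosome 13, from 24751845 to 24761923. It passed in all 18 alternative fits, with changes between 1.10 and 1.33, and it was the member that passed in the Rps3a3-low libraries alone (1.33, adjusted p = 0.000992 by edgeR).

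The factors that load the MCM ring had smaller fitted changes than Gmnn and did not pass in the main edgeR fit, with TMM scaling and genotype alone. Cdt1, the target of geminin, was at 15.6, 10.5, 12.8, 10.6 and 11.8 CPM in controls and 11.8, 21.8, 15.7 and 16.6 CPM in cKO. The groups overlapped, and the log2 fold change of 0.43 (SE 0.17) did not pass (adjusted p = 0.108 by edgeR). Cdt1 passed without cKO replicate 1 (0.56, adjusted p = 0.0278) and without control replicate 1. Orc1, the large ATPase subunit of the origin recognition complex, had the lowest level of the members per kilobase of exon in controls, 0.777 CPM per kb, and was at 2.70 ± 0.397 CPM (SD, n = 5) in controls and 4.07 ± 1.05 CPM (SD, n = 4) in cKO. Its change of 0.59 (SE 0.19, 1.51-fold) lay just outside the threshold (adjusted p = 0.0533 by edgeR), although its groups did not overlap, and it passed without cKO replicate 1 (0.695, adjusted p = 0.0323). Orc1 also passed by DESeq2 (adjusted p = 0.0223), with plain library totals (0.038) and with a term for library set (0.0287). Cdc6, the ATPase that joins the complex at the origin, was at 0.26 (SE 0.16, adjusted p = 0.312).

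Orc6, the smallest subunit of the origin recognition complex, had the lowest change of these genes. It was at 20.6, 16.9, 22.7, 20.9 and 21.99 CPM in controls and 19.9, 19.3, 18.6 and 25.4 CPM in cKO. The cKO libraries fell within the control range except for replicate 4, with a log2 fold change of 0.01 (edgeR adjusted p = 0.957, SE 0.11).

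The transcripts of geminin and its target were compared as the ratio of Gmnn to Cdt1 counts within each library. The ratio needs no scaling between libraries and does not give the levels of the 2 proteins. It also carries the rise of Gmnn given above, so its test is not separate support. On the log2 scale it was 0.65, 1.08, 1.34, 1.32 and 1.03 in controls and 2.402, 1.49, 1.74 and 1.69 in cKO. Every cKO library lay above every control, and the highest, cKO replicate 1, was the library with the lowest Cdt1 and the highest Gmnn of its group. The mean was 1.08 ± 0.279 (SD, n = 5) in controls and 1.83 ± 0.397 (SD, n = 4) in cKO, a 1.68-fold higher ratio (two-sided exact permutation p = 0.00794, the smallest that splits of 9 libraries into 5 and 4 allow, and 0.0159 after adjustment over 2 ratios). Leaving out a library takes away splits as well. Without any 1 of the controls or without cKO replicate 1 the adjusted p was 0.0571 to 0.0714, with the log2 difference between 0.56 and 0.81. Permuting genotype inside each library set gave an adjusted p of 0.05, where the smallest unadjusted p is 0.025.

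**Figure D3:**
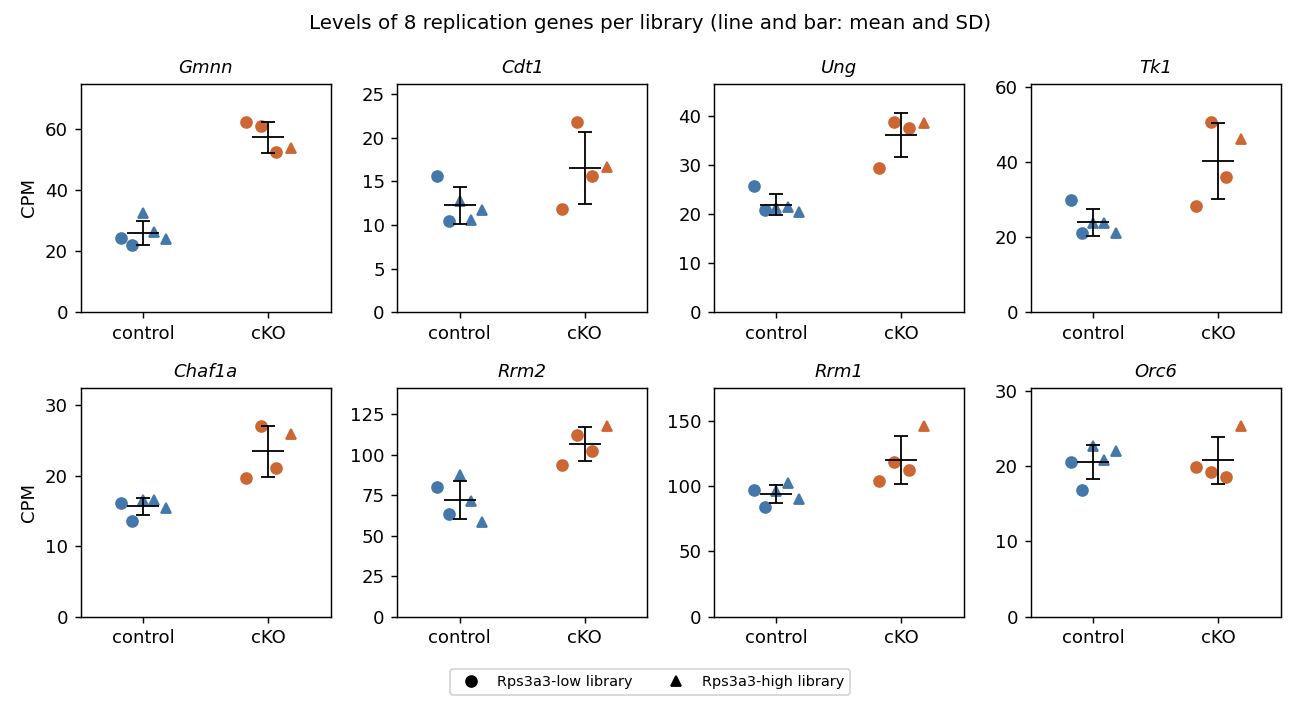
CPM of 8 genes in every library, with controls in blue and cKO in orange, circles for the Rps3a3-low set and triangles for the Rps3a3-high set, and the mean and SD in black. Gmnn, Ung, Chaf1a, Rrm2 and Rrm1 do not overlap between the groups, while Cdt1, Tk1 and Orc6 do.

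The MCM genes encode the subunits of the replicative helicase. All 6 ring subunits and Mcm10, which helps to activate the ring, had higher values in cKO, with a median of 0.41, and 4 of the 7 rose. Mcm7 rose by 0.48 (SE 0.09, adjusted p = 0.00433 by edgeR), from 46.1 ± 4.56 (SD, n = 5) to 64.5 ± 7.502 CPM (SD, n = 4), without overlap between the groups. Mcm10 rose by 0.46 (SE 0.12, adjusted p = 0.0188), also without overlap. Mcm3 at 0.43 (adjusted p = 0.0254) and Mcm5 at 0.41 (adjusted p = 0.0332) rose as well, while Mcm2 at 0.34 (adjusted p = 0.0953), Mcm6 at 0.21 (adjusted p = 0.1997) and Mcm4 did not pass. Per kilobase of exon the 6 ring subunits stood close to each other in controls, from 7.43 CPM per kb for Mcm2 to 13.55 CPM per kb for Mcm4. Mcm4, the lowest change of the group, was at 52.0, 39.6, 49.8, 54.8 and 47.1 CPM in controls and 45.9, 56.4, 52.2 and 68.2 CPM in cKO. Its groups overlapped broadly, with a change of 0.19 (SE 0.12, adjusted p = 0.298).

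Of these genes Mcm7 passed whichever library was left out. Mcm10 did not pass without control replicates 3 or 5 or cKO replicates 2 or 4, at most at an adjusted p of 0.0615 by edgeR. Mcm3 did not pass without control replicates 3 or 4 or cKO replicates 2 or 4, at most at 0.0797. Mcm5 failed to pass when cKO replicate 2 or 4 or any control but replicate 1 was left out, at most at 0.10. Mcm2 passed only without cKO replicate 1 (0.43, adjusted p = 0.029).

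The promoters of 3 MCM genes are shown because their letters hold the E2F motif that many replication genes share. The sequences are from RefSeq on GRCm38.p6 and run from 250 bases before to 50 bases after the transcription start. Capitals mark matches to TTTGGCGC, TTTCCCGC, TTTCGCGC or TTTGCCGC on either strand.
Mcm5 promoter, chr8:75109259-75109558, plus strand: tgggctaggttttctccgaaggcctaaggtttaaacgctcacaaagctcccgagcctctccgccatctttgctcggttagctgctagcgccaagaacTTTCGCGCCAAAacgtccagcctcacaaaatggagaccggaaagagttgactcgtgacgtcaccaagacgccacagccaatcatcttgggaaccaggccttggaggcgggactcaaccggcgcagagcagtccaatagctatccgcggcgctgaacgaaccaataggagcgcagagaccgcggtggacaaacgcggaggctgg
Mcm6 promoter, chr1:128359656-128359955, minus strand: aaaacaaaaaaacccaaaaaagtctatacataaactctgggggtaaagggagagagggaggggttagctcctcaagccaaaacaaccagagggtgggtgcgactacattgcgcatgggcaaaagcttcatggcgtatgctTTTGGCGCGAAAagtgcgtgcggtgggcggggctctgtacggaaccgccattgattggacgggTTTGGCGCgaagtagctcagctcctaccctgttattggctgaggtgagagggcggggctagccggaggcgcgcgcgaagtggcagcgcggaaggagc
Mcm7 promoter, chr5:138171834-138172133, minus strand: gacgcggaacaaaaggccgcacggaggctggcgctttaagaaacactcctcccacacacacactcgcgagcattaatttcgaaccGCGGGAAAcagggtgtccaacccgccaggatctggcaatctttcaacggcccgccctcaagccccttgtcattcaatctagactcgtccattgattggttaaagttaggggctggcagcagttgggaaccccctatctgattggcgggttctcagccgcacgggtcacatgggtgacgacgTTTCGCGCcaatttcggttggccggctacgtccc
In the Mcm5 promoter 2 matches on opposite strands overlap and read as 1 run of capitals, and Mcm6 holds such a run and a further match nearer to the start. The 2 matches of Mcm7 lie far apart, and the promoter of a second annotated start of Mcm7 held 0.

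A promoter was listed for 33 of the 41 members, and not for Gins1, Gins2, Gins4, Gmnn, Mcm4, Pole, Prim2 and Rfc2. An E2F match stood in 13 of the 33 (39.4%), among them Orc1, Cdc6, Cdt1, Mcm3, Pola1, Pold1, Gins3, Rfc3, Lig1 and Uhrf1, beside 4.53% of the 11306 tested genes with a listed promoter. Among the other replication genes described later it stood in 12 of 39 (30.8%), and among the mitosis genes in 1 of 25 (4.0%). Members with a match had a median log2 fold change of 0.41, from 0.01 to 0.59, and the 20 without had a median of 0.30, from -0.06 to 0.75, so that the ranges overlapped widely. Letters CCAAT, the box bound by NF-Y, stood in 66.7% of member promoters on either strand, beside 42.3% of all, 46.2% of the other replication genes and 80.0% of the mitosis genes. Letters TTTGAA, the CHR element known from genes of late cell cycle, stood in 12.1% of member promoters, beside 14.1% of all, 23.1% of the other replication genes and 76.0% of the mitosis genes. The E2F and CHR letters cannot share bases, a CCAAT box can share the last base of an E2F match, as it does in Mcm7, and matches are descriptions of the sequence only.

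Cdc45 and the GINS subunits complete the helicase. Cdc45 rose by 0.50 (SE 0.13, adjusted p = 0.018 by edgeR), from 13.6 ± 1.76 (SD, n = 5) to 19.1 ± 3.03 CPM (SD, n = 4), and Gins1 rose by 0.38 (SE 0.12, adjusted p = 0.0437). The 4 GINS proteins form 1 complex, and their transcripts had different fitted changes, with no test between them. Gins2 was at 0.28 (SE 0.15), Gins4 at 0.07 (SE 0.07) and Gins3 at 0.04 (SE 0.17), and none of these 3 passed. Gins3 was at 5.57, 6.14, 7.56, 9.78 and 7.44 CPM in controls and 7.71, 7.37, 6.11 and 8.72 CPM in cKO, so the cKO values lay inside the control range. Cdc45 did not pass without control replicate 5 or cKO replicates 2 or 4 (at most 0.0559). Gins1 still passed the adjusted p after control replicate 1 was left out but not after any other library was, and was at 0.118 without cKO replicate 4. It also did not pass without a filter on low counts (adjusted p = 0.0827) or with Xist class, whether a library held over 100 CPM of the X inactivation transcript Xist, as a term (0.0605).

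No gene of the sliding clamp and its loader passed the adjusted p. Pcna, whose product rings DNA and tethers polymerases, was at 49.8 ± 3.59 CPM (SD, n = 5) in controls and 58.3 ± 12.9 CPM (SD, n = 4) in cKO, with a fitted difference of 0.23 (SE 0.12, adjusted p = 0.2495 by edgeR). The SD in cKO exceeded that in controls, and cKO replicates 1 and 3 lay among the controls. The 5 subunits of the clamp loader ranged from -0.05 for Rfc1 to 0.23 for Rfc5, with Rfc3 at 0.01, Rfc2 at 0.07 and Rfc4 at 0.19, and none passed. Rfc1, the large subunit, also works outside S phase in repair, and at 56.9 ± 3.03 (SD, n = 5) and 55.1 ± 3.22 CPM (SD, n = 4) the ranges of its groups overlapped. A processed copy of Pcna, Pcna-ps2, reached 9.18 CPM, so some Pcna reads may have been split.

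Of the polymerase and primase genes 1 of 6 rose. Pola1, the catalytic subunit of the polymerase that starts each new strand, rose by 0.38 (SE 0.11, adjusted p = 0.0358 by edgeR) from 18.5 ± 1.81 (SD, n = 5) to 24.1 ± 3.78 CPM (SD, n = 4). It did not pass without control replicates 2, 3 or 5 or cKO replicates 3 or 4, at most at 0.11, nor with Xist class as a term (0.374, adjusted p = 0.0604), and Pola1 itself lies on the X chromosome. Pola2, the regulatory subunit of the same enzyme, was at 32.8, 28.1, 28.3, 26.0 and 28.0 CPM in controls and 24.1, 32.6, 29.4 and 28.2 CPM in cKO. The means were alike and the ranges overlapped, with a change of 0.00 (SE 0.10). The primase genes Prim1 at 0.25 (SE 0.12) and Prim2 at 0.19 (SE 0.14) did not pass. Pole, the leading strand polymerase, was at 0.37 (SE 0.14, adjusted p = 0.106) and passed only without cKO replicate 1 (adjusted p = 0.0312). Pold1, the lagging strand polymerase, was at 0.54 but with the widest error of all members (SE 0.24, adjusted p = 0.163). Its cKO replicate 2 alone exceeded the others by far, and without it the change was 0.24.

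The genes of single-stranded DNA binding and strand joining did not pass either. RPA coats single strands, and its subunits were at -0.06 for Rpa1, 0.16 for Rpa2 and 0.26 for Rpa3, none past the threshold. Rpa1 was at 103.6 ± 5.80 (SD, n = 5) in controls and 99.2 ± 5.43 (SD, n = 4) in cKO. Rpa3 passed without control replicate 4 (0.34, adjusted p = 0.0457 by edgeR). Fen1, the flap nuclease that trims Okazaki fragments, was at 0.34 (SE 0.14, adjusted p = 0.124) and Lig1, the ligase that seals them, at 0.20 (SE 0.13, adjusted p = 0.362).

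The genes of nucleotide supply and uracil removal were the role group in which every gene rose, 4 of 4, with a median of 0.64. Tk1, the S phase thymidine kinase, was at 29.9, 21.2, 23.7, 23.8 and 21.0 CPM in controls and 28.2, 50.7, 36.0 and 46.2 CPM in cKO. Apart from cKO replicate 1, which lay below control replicate 1, the cKO libraries were higher. The log2 fold change was 0.75 (edgeR adjusted p = 0.00923, SE 0.16), or 1.68-fold. Ung, the glycosylase that removes uracil from DNA, was at 25.8, 20.8, 21.1, 21.4 and 20.4 CPM in controls and 29.4, 38.7, 37.5 and 38.6 CPM in cKO. The groups did not overlap, and Ung rose by 0.72 (SE 0.10, adjusted p = 0.00046 by edgeR), or 1.65-fold. Control replicate 1 and cKO replicate 1 each lay apart from the rest of their group, towards the other.

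Ribonucleotide reductase makes deoxynucleotides from a large subunit, Rrm1, and a small subunit, Rrm2, that is destroyed outside S phase. Rrm2 was at 79.8, 63.6, 87.5, 71.3 and 58.3 CPM in controls and 93.6, 112.3, 102.2 and 117.7 CPM in cKO. It rose without overlap by 0.56 (SE 0.11, adjusted p = 0.00568 by edgeR), and in controls it was the highest of the members per kilobase of exon, at 26.0 CPM per kb. Rrm1 was at 97.1, 84.2, 96.3, 102.4 and 90.5 CPM in controls and 104.1, 118.8, 112.3 and 146.4 CPM in cKO. It rose by 0.36 (SE 0.09, adjusted p = 0.0235), also without overlap, although cKO replicate 1 exceeded control replicate 4 by little, and it did not pass without control replicates 2 or 5 or cKO replicate 4 (at most 0.0657). The log2 ratio of Rrm2 to Rrm1 was -0.40 ± 0.195 (SD, n = 5) in controls and -0.17 ± 0.101 (SD, n = 4) in cKO, a difference of 0.23 that the test did not resolve (two-sided exact permutation p = 0.0952, and 0.0952 after adjustment over 2 ratios).

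Of the genes that rebuild chromatin behind the fork, 2 of 3 rose. Chaf1a, the large subunit of the histone chaperone CAF-1, was at 16.1, 13.6, 16.6, 16.6 and 15.5 CPM in controls and 19.7, 27.1, 21.1 and 26.0 CPM in cKO. The groups did not overlap, and the log2 fold change of 0.59 (edgeR adjusted p = 0.00322, SE 0.11), or 1.501-fold, lay at the 1.5-fold threshold itself. Chaf1b, the partner subunit of CAF-1, was at 13.2, 9.01, 11.7, 9.88 and 9.99 CPM in controls and 10.8, 17.5, 13.7 and 18.3 CPM in cKO. Its cKO replicate 1 fell among the controls, and its change of 0.49 (SE 0.16) did not pass (adjusted p = 0.0583), though it did without cKO replicate 1 (0.62, adjusted p = 0.0125) and without control replicate 1. Chaf1b also passed by DESeq2 (adjusted p = 0.0254), with plain library totals (0.0398) and with a term for library set (0.0497). Uhrf1, which recruits the maintenance DNA methyltransferase to hemimethylated DNA, rose by 0.52 (SE 0.14, adjusted p = 0.0248 by edgeR), from 32.3 ± 4.02 (SD, n = 5) to 46.2 ± 9.92 CPM (SD, n = 4). It did not pass without control replicates 2, 3 or 5 or cKO replicates 2 or 4 (at most 0.0746).

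**Figure D4:**
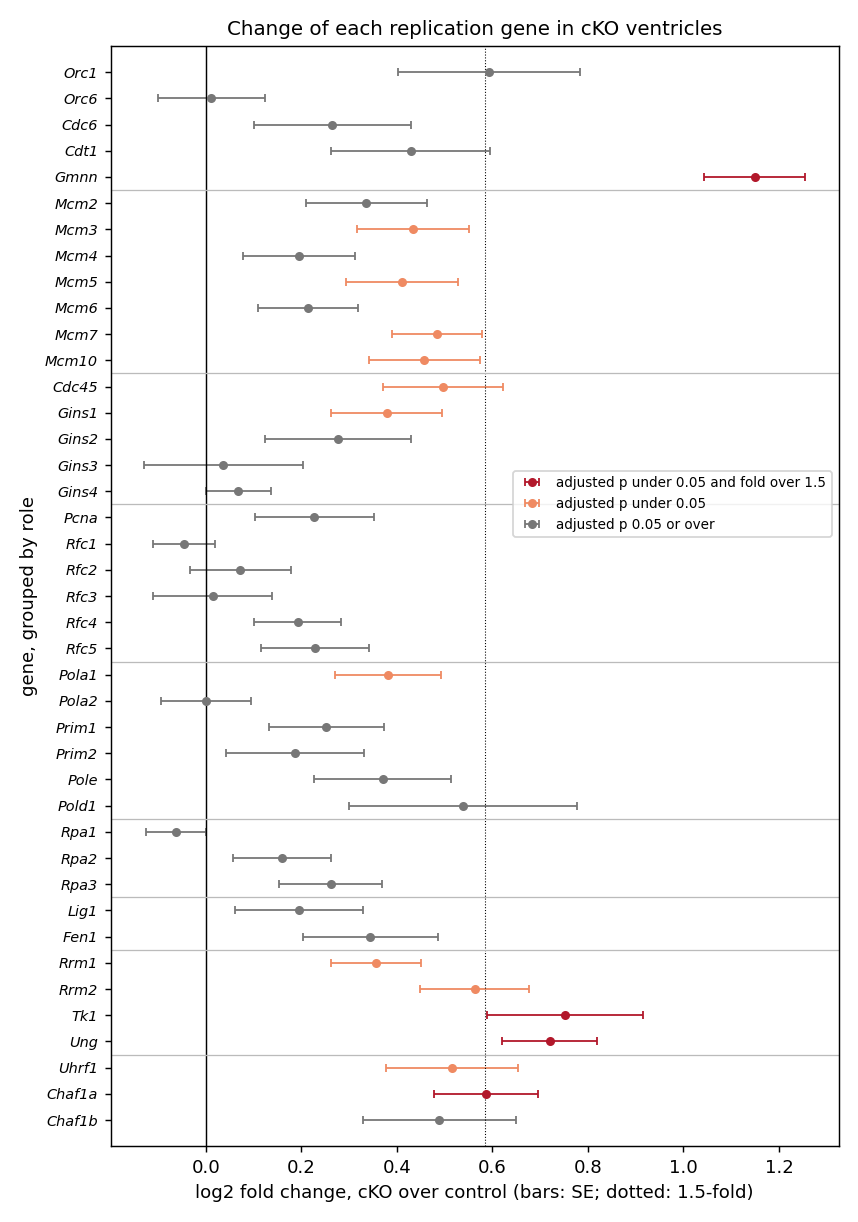
Log2 fold change of each member in cKO over control with its SE, grouped by role; dark red marks genes past both thresholds, light red those past adjusted p alone and grey the rest. Gmnn lies at 1.15, and all values are between -0.06 and 0.75 for the other members.

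Besides Gmnn, for which no promoter was listed, the other 3 genes called over 1.5-fold are shown with their promoters. Their windows hold 0 matches to the E2F letters used above. That of Orc1, at 1.51-fold but not past the adjusted p, holds 1.
Ung promoter, chr5:114130185-114130484, plus strand: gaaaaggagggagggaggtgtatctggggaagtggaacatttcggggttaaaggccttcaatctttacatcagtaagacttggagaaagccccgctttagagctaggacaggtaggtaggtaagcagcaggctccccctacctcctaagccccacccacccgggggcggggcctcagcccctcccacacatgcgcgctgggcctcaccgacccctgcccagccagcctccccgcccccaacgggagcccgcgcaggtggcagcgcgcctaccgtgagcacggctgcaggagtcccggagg
Tk1 promoter, chr11:117825965-117826264, minus strand: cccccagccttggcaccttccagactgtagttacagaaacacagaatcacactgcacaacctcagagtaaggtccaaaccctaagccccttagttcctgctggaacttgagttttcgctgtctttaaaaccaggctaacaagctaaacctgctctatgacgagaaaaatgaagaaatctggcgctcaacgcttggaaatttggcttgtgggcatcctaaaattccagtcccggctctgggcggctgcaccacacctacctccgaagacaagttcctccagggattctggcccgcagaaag
Chaf1a promoter, chr17:56040166-56040465, plus strand: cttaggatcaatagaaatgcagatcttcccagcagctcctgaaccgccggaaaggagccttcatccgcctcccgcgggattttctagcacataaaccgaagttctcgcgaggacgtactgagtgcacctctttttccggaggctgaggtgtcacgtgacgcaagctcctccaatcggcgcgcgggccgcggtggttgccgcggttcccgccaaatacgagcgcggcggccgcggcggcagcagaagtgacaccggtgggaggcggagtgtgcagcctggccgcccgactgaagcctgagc
The Chaf1a window holds 1 CCAAT box with both strands searched, and those of Ung and Tk1 hold 0. That these exact letters are missing says nothing about binding of a factor to related letters or elsewhere. In Chaf1a 52.5% of the exon bases are overlapped by exons of Ubxn6 on the opposite strand, and in Fen1 and Gins2 78.8% and 67.3% are overlapped by Gm10143 and Gse1. The strand setting of the counting is not given in the sources used here, so reads of such pairs may not have been kept apart. Ubxn6 itself was at 0.04 (adjusted p = 0.875 by edgeR), while Afmid, whose exons overlap 1.6% of those of Tk1, rose by 0.52 (adjusted p = 0.019), and Eif4a2, whose exons overlap 12.7% of those of Rfc4, was lower, at -0.31 (adjusted p = 0.034).

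Most members also varied together among libraries of the same group. After the group means were removed, the correlation of a member with the median of the others over the 9 libraries had a median of 0.85, and it exceeded 0.7 in 30 of the 41 genes. These libraries share their depth and scaling across genes, so the values are a description. Uhrf1 at 0.98, Lig1 at 0.98 and Mcm5 at 0.97 followed the others most closely. Only 4 members were below 0.2, namely Gmnn at 0.13, Gins3 at 0.09, Gins4 at 0.01 and Rpa3 at -0.52. Gmnn thus paired the largest change of the list with little of the variation that the others shared.

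**Figure D5:**
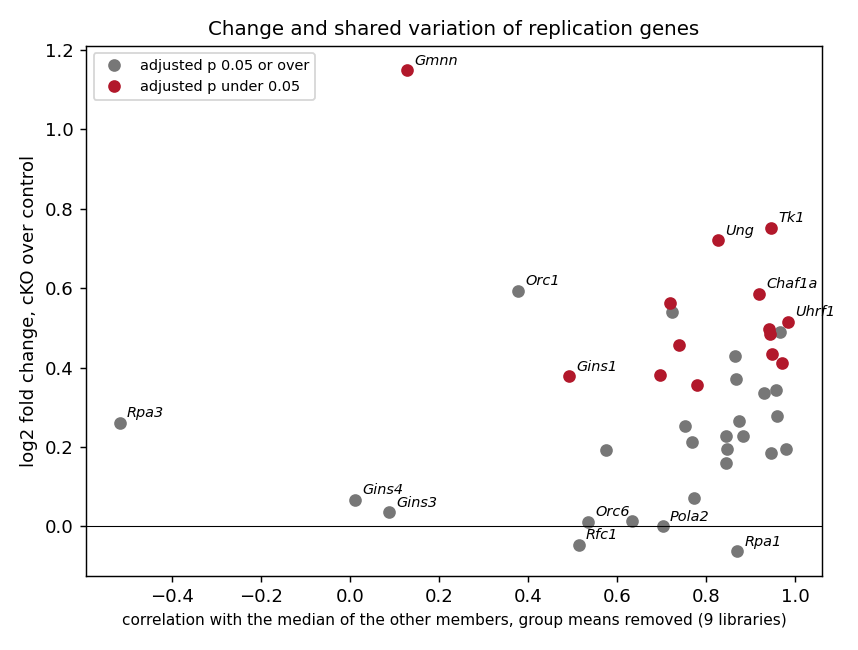
Log2 fold change in cKO (vertical axis) against the correlation of each member with the median of the other members after group means were removed (horizontal axis, 9 libraries); red marks adjusted p under 0.05. Most red points lie at correlations above 0.7, and Gmnn lies alone at 1.15 and 0.13.

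Other genes of the replication pathway, 46 in all and chosen by role, had smaller fitted changes at the median. They had a median of 0.10, with 35 higher and 11 lower in fitted value, and 0 were called over 1.5-fold. At an adjusted p under 0.05, 2 were higher and 1 lower, beside the 8.25% and 8.03% of all genes given above, and at an unadjusted p under 0.05, 14 were higher, beside 15.2% of all genes. Dbf4, the activator of the kinase that fires origins, rose by 0.36 (SE 0.11, adjusted p = 0.0482 by edgeR). The histone chaperones Asf1a and Asf1b moved in opposite directions, Asf1b, the form tied to proliferation, rising by 0.46 (SE 0.13, adjusted p = 0.037) and Asf1a falling, at -0.30 (SE 0.08, adjusted p = 0.0242). When library set entered the fit 11 of the 46 were higher and without cKO replicate 1 10 were, against 0 without any 1 of control replicates 1, 2 or 5 or cKO replicates 2 or 4. The share of all genes past the adjusted p was not counted in those fits.

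For comparison with a later step of the cycle, 30 mitosis genes had a median of 0.37, close to that of the members, and all 30 had higher fitted values in cKO. Of these 7 passed an adjusted p of 0.05 (23.3%) and 3 were called over 1.5-fold, beside 8.25% and 4.01% of all genes: Plk1, a mitotic kinase, at 0.67 (SE 0.18), Cenpe, a kinetochore motor, at 0.67 (SE 0.12) and Cenpa, the centromeric histone, at 0.62 (SE 0.11). The count of 7 became 24 with the library set as a term, 22 without cKO replicate 1 and 3 without any 1 of control replicates 2 or 5 or cKO replicates 2 or 4. The share of all genes past the adjusted p was not counted in those fits. Scores of the mitosis genes per library ran between -0.42 and 0.07 for controls and between -0.13 and 0.54 for cKO, and the difference between these lists and the members was not tested. The mitosis genes had medians of 0.37 and 0.61 in the Rps3a3-low libraries and the Rps3a3-high libraries, and the other replication genes of 0.15 and 0.24.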

How the data were processed

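Poly(A)-selected RNA of ventricles from mice at postnatal day 7 was sequenced in 9 libraries, 5 control and 4 cKO, grouped by their own labels. The authors deposited raw read counts per gene in 1 table, with 0 further sample columns. Per the study's methods, stranded libraries were read single-end and mapped to mm10. The submitters' processing notes name STAR 2.4.2a and HTSeq 0.6.1. The annotation and strand setting of the counting are not given in the sources used here. The methods state 4 controls, while the labels and a legend of the study give 5, and all labelled libraries were used.

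Symbols, coordinates (1-based) and exon lengths came from GENCODE M21 on GRCm38, which held 36345 of 38293 identifiers. Counts were tested in R 4.3.3 with edgeR 4.0.16: filterByExpr with a minimum count of 10, TMM scaling, robust quasi-likelihood F test with genotype alone, Benjamini-Hochberg adjustment over 15318 genes. Calls needed a fold over 1.5 and an adjusted p under 0.05. The SE is the log2 fold change divided by the root of F. Scores used log2 CPM with a prior count of 2, and within-set differences used log2(CPM + 0.5). Ratios of counts, with 0.5 added, were tested by enumerating every split of the 9 libraries (exact permutation, two-sided). The edgeR step was tested on simulated data. Alternatives were DESeq2 1.42.0, other scalings and filters, the replicate number, library set or Xist class as a term, and leaving out each library. The labels do not say whether libraries are separate animals, while the legend counts the replicates as hearts. If any libraries share an animal, p-values measure only the spread between libraries.

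The members and lists were chosen with earlier results of these data known, as were the library sets. All 41 members are named. Values per library are given for members called over 1.5-fold, for the lowest change in each role group with a member past the threshold, and for both genes of each ratio. From the 2 other lists up to 4 called genes each are named, and Dbf4, Asf1a and Asf1b were added after their values were seen.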

Additional observations from a re-analysis of the deposited data

Results flagged for a closer look

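In groups of 4 or 5 libraries, 6 of 88 sets of values had a highest or lowest library that stood apart from the rest by Dixon's test, and chance flags about 1 in 20 such sets. In controls, replicate 1 was far above the others in Cdc45 at 16.6 CPM (next 13.3), in Pold1 at 24.97 CPM (next 16.6) and in Ung at 25.8 CPM (next 21.4), and replicate 2 was far below the others in Cdc6 at 5.995 CPM (next 8.18). In cKO, replicate 1 was far below the others in Ung at 29.4 CPM (next 37.5) and far above them in Rpa3 at 23.2 CPM (next 18.9). Control replicate 1 had the highest member score of its group and cKO replicate 1 the lowest of its group.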

How the results depend on the processing

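Of the 41 members, Gmnn passed in every alternative run, and Ung, Tk1, Chaf1a, Mcm7 and Rrm2 in each fit that left out 1 library. In the 5 Rps3a3-low libraries alone, 620 genes were called instead of 1030, 1 member was higher at an adjusted p under 0.05 and 1 was called over 1.5-fold, 0 of the other replication genes and 3 of the mitosis genes passed, and Arid1a was at -0.334. The counts for other replication and mitosis genes, 2 and 7 in the report, were 6 and 11 by DESeq2, 7 and 11 with plain library totals, 11 and 24 with the library set as a term and 0 and 4 with Xist class as a term, and without a filter on low counts 1 other replication gene passed. The cause of these shifts was not tested, and the share of all genes past the adjusted p was not counted in these fits.

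No label says that the replicate numbers pair the samples. Deviations of same-numbered libraries correlated at 0.02, 0.04, 0.01 and 0.23, and no cKO library correlated best with the control of its own number. Such correlations over all genes cannot exclude that same-numbered libraries share a litter, which no label gives. With the replicate number as a block 6 members passed and 2 were called, against 14 and 4 (Cdc45, Gins1, Mcm10, Mcm3, Mcm5, Pola1, Tk1 and Uhrf1 no longer passed), 888 genes were called in all, and 1 other replication gene passed. The median log2 fold change of the members was 0.301 in that fit, beside 0.336 in the main fit. The Gmnn to Cdt1 difference was 0.749 with an adjusted p of 0.05 when labels were permuted within library sets.

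Over the fits that each left out 1 library, called genes numbered 909 to 1171, members past the adjusted p 6 to 18, members called 3 to 9, other replication genes 0 to 10 and mitosis genes 3 to 22. The member median was 0.237 to 0.377, Arid1a -0.424 to -0.367, the Gmnn to Cdt1 difference 0.558 to 0.864 and the Rrm2 to Rrm1 difference 0.166 to 0.290.

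Members near 0 changed sign without passing any test. Outside the fits that left out a library these were Rfc1 (0.0102 with plain library totals, 0.000345 with the library set), Pola2 (0.056 with plain totals, 0.00793 with a filter at a mean of 1 CPM, 0.00108 with Xist class), Rfc2 (-0.0392 in Rps3a3-low libraries) and Rfc3 (-0.00246 with Xist class). With 1 library left out Pola2 ran from -0.0696 to 0.0728, Rfc2 from -0.0325 to 0.156, Rfc3 from -0.0701 to 0.105, Gins3 from -0.0467 to 0.164 and Orc6 from -0.0998 to 0.0615.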

Other observations

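Gmnn has 13 tested neighbours within 500 kb on either side on chromosome 13, a window chosen after its values were seen. Of these, Dcdc2a changed by 2.45 (SE 0.38, adjusted p = 0.00113 by edgeR) and Ripor2, the nearest gene downstream of Gmnn on the opposite strand, by 0.59 (SE 0.13, adjusted p = 0.00895). Both were higher in cKO, beside 8.25% of all genes higher at an adjusted p under 0.05. The other 11 did not pass, among them Tdp2 at -0.02 (SE 0.10) and Acot13 at 0.17 (SE 0.06, adjusted p = 0.0861), the nearest protein-coding genes on the side of the Gmnn start apart from BC005537 at -0.11 (SE 0.08).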
